A study of Ovis aries with 12 samples.

Results

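Myoglobin (gene MB) and aquaporin-4 (gene AQP4) are described here in biceps femoris muscle of fetal sheep, after the mothers received cortisol or vehicle in late pregnancy. The members were the array probes annotated to either gene: 2 of 961 genes named on the array, read by 3 of its 15008 probes, with 2 for MB and 1 for AQP4. Both genes were selected on measured values of these same arrays, because they stood among the named genes with lower signal in the cortisol group. The difference between groups in MB and AQP4 is therefore given as a description, with no test, and supports nothing.

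The study set 6 control arrays against 6 cortisol arrays, 1 fetal biceps femoris RNA sample to each one-colour Cy3 array. Control ewes received vehicle and cortisol ewes received a continuous infusion of 1 mg/kg per day, both from about day 115 of gestation, with 7 ewes in each arm. The labels give 140 days of gestation for every sample, while the design text gives a range of 139 to 144 days for the ewes, which carried single fetuses. They name no breed, fetal sex or genotype, and nothing in them ties an array to a ewe. The label text on treatment speaks of the left ventricular wall, with 5 samples a group, whereas the title, the source name and the tissue field name biceps femoris and there are 6 arrays a group.

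Myoglobin is the oxygen-binding haem protein of striated muscle. It is abundant in oxidative fibres, where it stores oxygen and eases its diffusion to mitochondria. Aquaporin-4 is a water channel that in skeletal muscle sits in the sarcolemma, mainly of fast glycolytic fibres, anchored through alpha-syntrophin to the dystrophin-associated complex. In the brain the same channel marks the endfeet of astrocytes. The genes thus represent opposite ends of the range of fibre types, and the slow myosin gene MYH7, the fast myosin gene MYH2 and the myogenic transcription factor gene MYOD1 were read alongside them.

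The probes show what each measurement rests on. The MB probes are 60-mers that start at bases 518 and 519 of the sheep myoglobin transcript and share 59 bases, so they are a repeat reading of 1 site and not independent evidence. The first 30 bases of each are printed, with the 29 bases that both stretches share in capitals.
MB probe at base 518: gAATCCCAAGTAGTTATAGGGTTTGCTTCT
MB probe at base 519: AATCCCAAGTAGTTATAGGGTTTGCTTCTg
AQP4 probe at base 788: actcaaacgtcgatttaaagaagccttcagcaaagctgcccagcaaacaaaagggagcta
The AQP4 sequence is whole, in lower case throughout, and is the only AQP4 probe. Each of the 3 probes had 1 spot on an array and a GC content of 45.0%. The files give these probes no chromosomal position, and no genome of a stated build was used, so coordinates and exon assignments are not given.

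Values are log2 background-subtracted signal minus the 75th percentile of signal on the same array, so 0 is a fairly bright probe. A difference of 1 on this scale is a doubling of signal. Intensities at that percentile ran from 187.3 to 446.8, and between 9958 and 11403 probes an array lay well above background. The 3 member probes were well above background on all 12 arrays, and no spot of theirs was saturated or marked as an outlier. Tissue identity was checked against 8 skeletal muscle markers. The 5 that were measured (MYOD1, MYOG, MYH1, MYH2 and MYH7) were above background on every array. MYLPF and TNNC2, a light chain and a troponin of fast skeletal fibres, had mean signals of 9.76 and 10.24 in controls and 9.94 and 10.50 under cortisol. The regulators MYOD1 and MYOG and these fast-fibre genes belong to skeletal and not to ventricular muscle, so the signals go with the biceps femoris label. None of 11 cardiac markers was named on the array.

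Some libraries stood apart. Control array 3 had the lowest MYH2 signal of the series (0.79, against 4.98 or more on every cortisol array) and the highest MYH7 signal (3.97). The mean signal of 5 liver genes was 1.40 on control array 1 and 2.28 on control array 4, and between -5.11 and -1.34 on the other 10 arrays. Cortisol array 3, the lowest in MB, had a spike-in slope of 0.930, against 0.986 to 1.012 on the other arrays. The correlation with the most similar array was 0.970 for control array 3, 0.970, 0.968 and 0.970 for cortisol arrays 1, 3 and 5, and 0.979 or more for the others. Cortisol arrays 1, 3 and 5 were also those lowest in AQP4, and the part of these lower correlations in the AQP4 values was not tested. Leaving out cortisol array 1, 3 or 5 gave differences (cortisol minus control) of -1.69, -1.06 and -1.55 for MB and of -0.93, -1.22 and -1.005 for AQP4. Leaving out control array 1, 3 or 4 gave -1.50, -1.33 and -1.52 for MB and -1.18, -1.14 and -1.25 for AQP4.

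MB signal was lower in the cortisol group, and unevenly so. The control arrays, in replicate order, read 6.19, 6.56, 7.00, 6.06, 6.15 and 6.12. The cortisol arrays read 5.99, 3.74, 2.85, 5.91, 5.32 and 5.48. All cortisol arrays were thus below the lowest control, but cortisol arrays 1 and 4 lay close to it, while cortisol arrays 2 and 3 were far below. The groups were separated by a gap of only 0.07. Means were 6.35 ± 0.37 (SD, n = 6) in controls and 4.88 ± 1.29 (SD, n = 6) under cortisol, a difference of -1.46 (SE 0.48), which is a ratio of 0.363. The medians, 6.17 and 5.40, differed by -0.77.

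The other MB probe read the same pattern. Its difference was -1.48 (SE 0.48), its values were within 0.18 of those of the first probe on every array, and the highest cortisol array (5.96) overlapped the lowest control (5.94). The separation of the groups thus depended on which of these nearly identical probes was read. Separation of this kind, with all 6 cortisol arrays below every control array, was found in 34 of 10719 probes (0.317%). Nothing is read from that share, since the contrast itself chose the gene.

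AQP4 signal was also lower in the cortisol group, on other arrays. Controls read 4.53, 3.99, 4.75, 4.21, 4.87 and 4.37 in replicate order. Cortisol arrays read 1.94, 4.33, 3.37, 3.80, 2.30 and 3.79. Of the cortisol arrays, 5 lay below every control, while cortisol array 2 was within the control range. Arrays 1 and 5 were the lowest. Means were 4.45 ± 0.33 (SD, n = 6) in controls and 3.26 ± 0.94 (SD, n = 6) under cortisol, a difference of -1.20 (SE 0.36) and a ratio of 0.436.

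**Figure D1:**
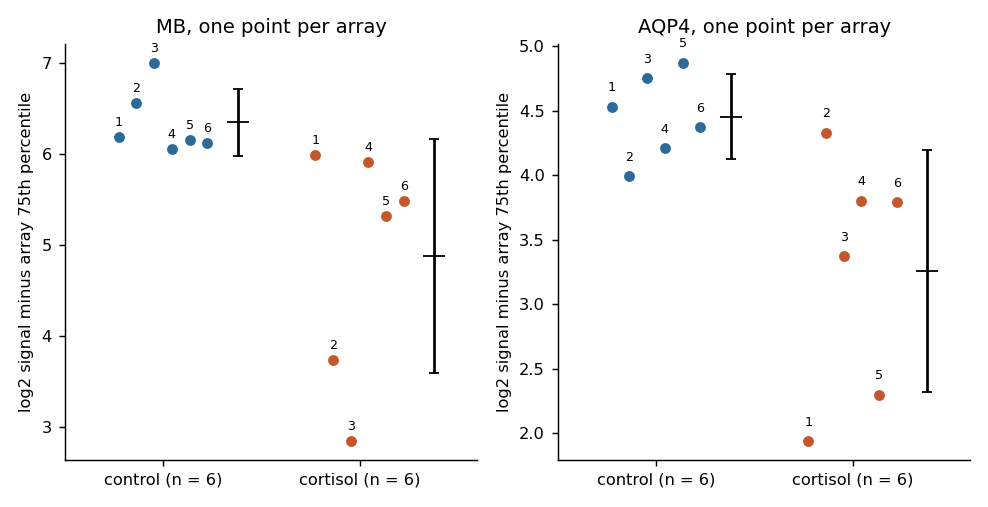
Each point is 1 array, numbered by replicate; the vertical axes give log2 signal minus the array's 75th percentile for MB (left) and AQP4 (right), with group means and SD as bars beside the points. The lowest MB values are cortisol arrays 2 and 3 (3.74 and 2.85), and the lowest AQP4 values are cortisol arrays 1 and 5 (1.94 and 2.30).

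A limma fit across all 10734 probes above background called 0 lower (0%) and 0 higher (0%) at a Benjamini-Hochberg adjusted p under 0.05. The lowest limma adjusted p was 0.693, so no probe passed, MB and AQP4 included, and 732 probes had an unadjusted p under 0.05. Over all tested probes the median difference was -0.02, and 54.0% of probes were on the lower side. As the labels do not say how arrays relate to ewes, the spread measured is that between these samples.

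The spread within the cortisol group was wider than in the controls for both genes. The SD under cortisol was 3.51 times the control SD for MB and 2.82 times for AQP4. On the other MB probe the ratio was 2.79. The median of that ratio over 10719 probes was 1.34, and 3.9% and 8.4% of probes had a ratio at least as high as MB (first probe) and AQP4, respectively. Nothing is read from these shares, since both genes were chosen for lower cortisol signal on these same values. Each gene was more than 1 log2 unit below the control mean on 3 cortisol arrays: arrays 2, 3 and 5 for MB, and arrays 1, 3 and 5 for AQP4.

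The arrays lowest in MB were thus not those lowest in AQP4. Cortisol array 2 read -2.60 against the control mean in MB and -0.12 in AQP4. Cortisol array 1 read -0.36 in MB and -2.51 in AQP4. Only cortisol arrays 3 and 5 were more than 1 unit below the control mean in both. After group means were removed, MB and AQP4 had a Pearson r of -0.356 over the 12 arrays (exact permutation p = 0.434, adjusted over 7 relations 0.76) and a Spearman rho of -0.057 (p = 0.897, adjusted 0.897). Without cortisol arrays 1 and 5, the farthest from the median of AQP4, r was 0.146. No relation between the genes was detectable in these arrays.

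**Figure D2:**
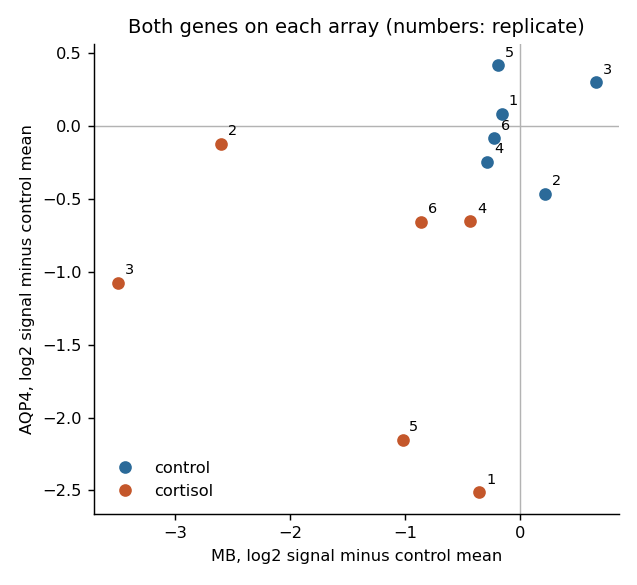
Each point is 1 array, placed by its MB signal (horizontal) and AQP4 signal (vertical), both as log2 difference from the control mean, with replicate numbers beside the points. Cortisol array 2 is low in MB alone, cortisol array 1 is low in AQP4 alone, and the 6 controls lie near the origin.

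The arrays fell into 3 sets by slide and row on the slide, each set with 2 control and 2 cortisol arrays. The MB difference was -1.51 in set 1, -2.15 in set 2 and -0.73 in set 3. The AQP4 difference was -1.13, -0.89 and -1.57 in the same sets. Both genes were lower under cortisol in every set, with set 2 the farthest for MB and the nearest to 0 for AQP4. Leaving out cortisol array 3 brought the MB difference to -1.06, and leaving out cortisol array 1 brought the AQP4 difference to -0.93.

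**Figure D3:**
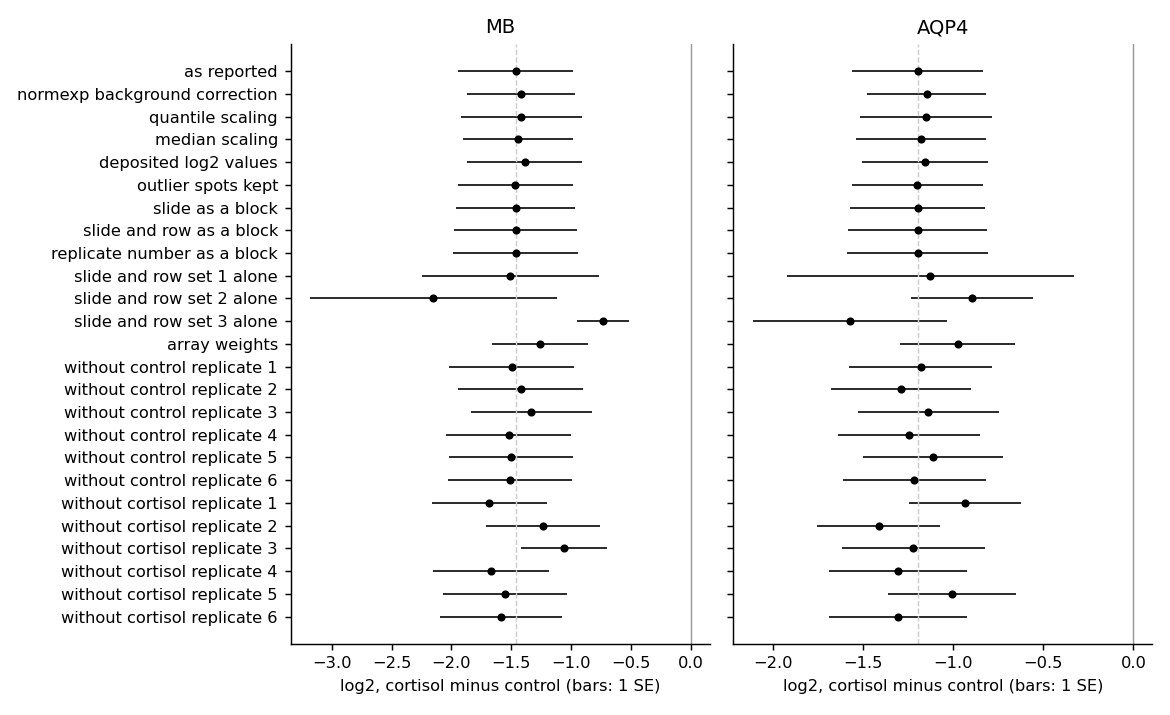
The horizontal axes give the cortisol minus control difference in log2 signal for MB (left) and AQP4 (right), with bars of 1 SE, as reported and under each other processing, block, set of arrays or left-out array. All values lie below 0, from -2.15 to -0.73 for MB and from -1.57 to -0.89 for AQP4.

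The fibre-type genes gave the setting. MYH7, the slow myosin heavy chain, read 0.47 to 3.97 in controls with a median of 1.28, and -0.53 to 1.93 under cortisol with a median of 0.29. The groups overlapped, and the difference of -0.999 (SE 0.58) became -0.53 without control array 3. By set it was -0.90, -2.57 and 0.47, so its direction turned in set 3. MYH2, the fast 2A myosin heavy chain, read 0.79 to 5.71 in controls with a median of 5.32, and 4.98 to 6.15 under cortisol with a median of 5.75. Its difference of 1.06 (SE 0.69) became 0.29 without control array 3, which alone was far below the rest, and was -0.07, 2.73 and 0.51 by set. MYOD1, which starts the myogenic programme, read 1.63 to 2.27 in controls with a median of 1.90. Under cortisol it read -0.35, 2.59, 1.01, 2.14, 0.49 and 2.52 in replicate order, on both sides of the control range. Its difference was -0.52 (SE 0.44), or -0.17 without cortisol array 1 and -0.34 without cortisol array 5. None of the 3 genes passed the limma threshold.

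Of the 7 relations computed over arrays, 1 had an adjusted p under 0.05: AQP4 with MYOD1. With group means removed, Pearson r was 0.875 over 12 arrays (two-sided exact permutation within groups, p = 0.00484, adjusted over 7 relations 0.0339). The rank correlation was weaker, with a Spearman rho of 0.429 (exact permutation p = 0.202, adjusted 0.706). Cortisol arrays 1 and 5, lowest in AQP4, were also lowest in MYOD1, and cortisol array 2 was highest of the cortisol arrays in both. Cortisol array 3 was the next lowest in both. Cortisol arrays 1, 3 and 5 were also the cortisol arrays least correlated with their most similar array (0.970, 0.968 and 0.970). The part of this in the relation was not tested. Within the cortisol group r was 0.957 (exact permutation p = 0.00278, the smallest that 6 arrays allow, adjusted over 14 relations within groups 0.0389) and rho was 0.943 (unadjusted exact permutation p = 0.0167). Within the controls, where MYOD1 had an SD of only 0.24, r was -0.157 (exact permutation p = 0.761, adjusted 0.841) and rho -0.086 (exact permutation p = 0.919). The difference between the groups in this relation was not tested.

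The AQP4 and MYOD1 relation had a limited base. Both genes were chosen with earlier results of these data known, and the adjustment over 7 relations does not cover that choice. Without cortisol arrays 1 and 2, the farthest in MYOD1, r was 0.700. Leaving out any 1 cortisol array kept r between 0.78 and 0.90 but brought the adjusted exact permutation p to between 0.118 and 0.27. With signals centred within group and slide-and-row set, r was 0.91 with an adjusted p of 0.438, where the 64 arrangements allow no exact p below 0.0312. With normexp, a model-based background correction, r was 0.88 and the adjusted exact permutation p was 0.0557.

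None of the relations of MB passed the threshold. Its r was 0.384 with MYH7 (rho 0.086, adjusted exact permutation p of r 0.367 and of rho 0.897). With MYH2, r was -0.292 (rho -0.486, adjusted exact permutation p 0.204 and 0.706). With MYOD1, r was -0.190 (rho -0.314, adjusted exact permutation p 0.76 and 0.844). Within controls MB and MYH2 had an r of -0.908 (exact permutation p = 0.0278, adjusted 0.194). Control array 3 had both the highest MB and the lowest MYH2 there, and without it and cortisol array 1 the r over both groups was 0.039. Without control array 3 and cortisol array 5, the farthest in MYH7, the r of MB with MYH7 was 0.268.

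No relation of AQP4 with the myosins was detectable. Its r with MYH7 was -0.093 (rho -0.171, adjusted exact permutation p 0.766 and 0.897). Its r with MYH2 was -0.090 (rho 0.143, adjusted exact permutation p 0.76 and 0.897). Both values changed sign when single arrays were left out.

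**Figure D4:**
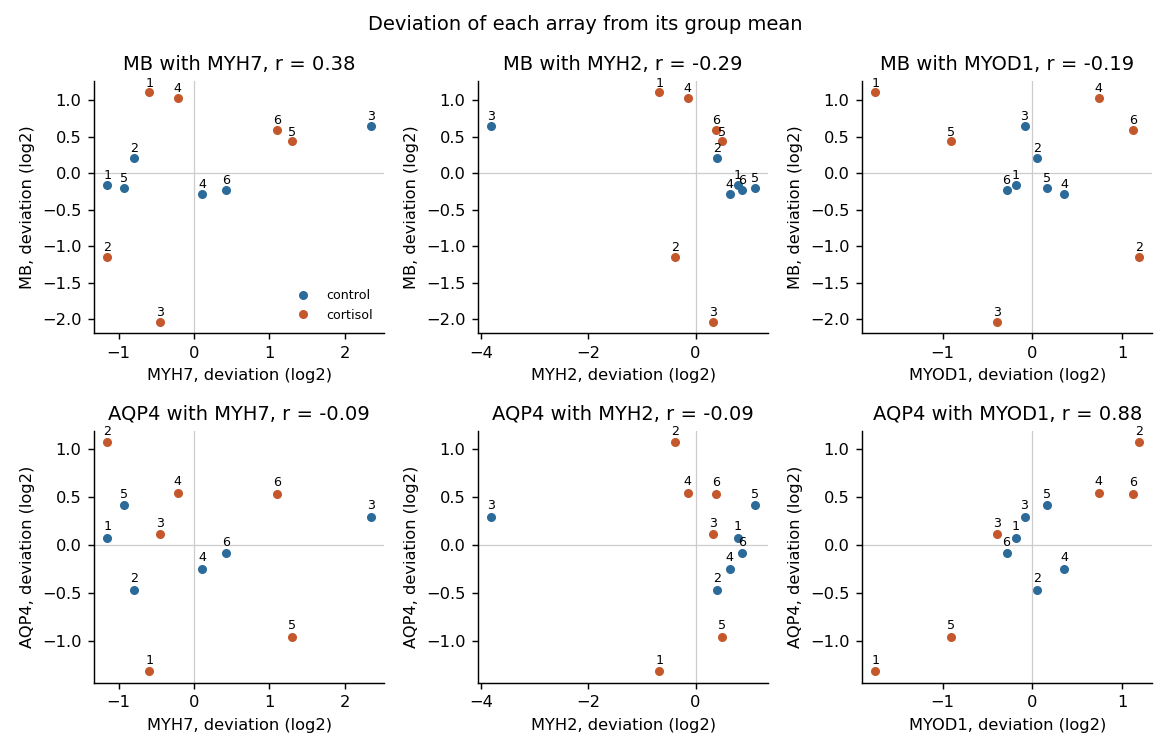
Each panel plots MB (top row) or AQP4 (bottom row) against MYH7, MYH2 or MYOD1, each axis as the log2 deviation of an array from its group mean, with 1 point per array numbered by replicate. AQP4 and MYOD1 have the highest r of the 6 panels (0.875), with cortisol arrays at both ends, while control array 3 stands alone at the left of both MYH2 panels.

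Array quality was set against the members in 6 further relations. AQP4 and the share of probes well above background had an r of -0.521 and a rho of -0.714 (exact permutation p = 0.0208 and 0.0202). Neither held after adjustment over the 6 relations (exact permutation, adjusted p = 0.125 and 0.121). The r of AQP4 with local background was -0.526 (adjusted exact permutation p = 0.284). It was -0.814 without control array 4 and cortisol array 6, the farthest in local background. Within the cortisol group it was -0.765 (adjusted exact permutation p = 0.438), and within the controls 0.163. With the 75th percentile of signal, r was -0.351 (adjusted exact permutation p = 0.349), or 0.173 without control array 5 and cortisol array 1. For MB the r values with the share of probes, local background and 75th percentile were 0.182, 0.133 and 0.414. Their adjusted exact permutation p-values were 0.574, 0.757 and 0.284. The part of array quality in the values of either gene was not tested further.

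The named genes most like each member over the 12 arrays, after group means were removed, are given as a description without a test. For MB, MMP2, a gelatinase of the extracellular matrix, had the highest r of 676 named genes (0.827), and was high in both controls (0.973) and cortisol arrays (0.922). LGMN, a lysosomal cysteine protease, had an r of 0.795, and ECE1, the endothelin-converting enzyme, 0.773, although ECE1 was well above background on only 4 arrays of each group. Then came the histone chaperone gene ASF1A (0.680), CYB561 (0.675), the superoxide dismutase gene SOD1 (0.673), the bone morphogenetic protein receptor gene ACVR1 (0.654) and the mitochondrial fatty acid importer gene CPT1A (0.653). Among all tested probes the 5th to 95th percentiles of r with MB were -0.56 to 0.57, and the highest was 0.955. MYH7 ranked 93.

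At the other end for MB were BBC1 (an older name of ribosomal protein L13), with an r of -0.845, RPS25 (-0.844), GAPDH (-0.840) and RPS2 (-0.834). These are ribosomal protein genes and a glycolytic enzyme gene. Their r was between -0.934 and -0.890 within the cortisol group and between -0.180 and -0.059 within the controls. Their differences between groups were small, between -0.03 and 0.09.

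For AQP4, MYOD1 ranked 1 of 676 named genes. TGFB2, a transforming growth factor ligand, followed with an r of 0.825, FZD2, a Wnt receptor, with 0.802, and the glutamate receptor gene MGLUR4 with 0.786. NDUFA2, a subunit of respiratory complex I, had an r of 0.759. Next were a serine hydroxymethyltransferase gene (SHMT1 by accession, SHMT2 on the array) at 0.757, the pantothenate kinase gene PANK2 at 0.741 and the cyclin gene CCND2 at 0.731. Only the hydroxymethyltransferase and PANK2 had an r over 0.8 within both groups (0.910 and 0.802 in controls, 0.878 and 0.885 under cortisol). The 5th to 95th percentiles over all tested probes were -0.59 to 0.60, and the highest was 0.949.

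The genes least like AQP4 were GRINA, a transmembrane protein gene listed as OTMP on the array (r of -0.879), the poly(A)-binding protein gene PABPC1 (-0.834), the matricellular protein gene CCN2 (-0.823) and the antithrombin gene SERPINC1 (-0.815). All 4 were below -0.5 within controls and below -0.8 within the cortisol group. None of the 8 genes nearest to MB was positively related to AQP4 by more than 0.152.

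The related genes on the array were few. Of 31 listed myoglobin, globin and haem genes, 7 were measured, with 2 higher and 5 lower, 0 called and a median difference of -0.06. Apart from MB, the brightest were the ferritin heavy chain gene FTH1 (-0.05, SE 0.16), the beta-globin gene HBB (0.68, SE 0.72) and the haem synthesis gene UROD (-0.20, SE 0.18). None had a difference near that of MB in the negative direction. Nothing is read from that, since MB was itself chosen for its lower cortisol signal. The median over all tested probes was -0.02.

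Aquaporins were measured for 5 of 15 listed genes, with 2 higher, 3 lower and 0 called. AQP3, a channel that also passes glycerol, had a difference of 0.30 (SE 0.52), AQP2, the vasopressin-regulated channel of the kidney, -0.05 (SE 0.15) and AQP8 -0.22 (SE 0.16). AQP5 was well above background on 1 array and AQP9 on 0, and neither was tested. The list median was -0.05.

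The partners of AQP4 at the sarcolemma were hardly covered. Of 25 listed dystrophin-associated complex genes, only BGN, the proteoglycan biglycan, was tested, with a difference of 0.20 (SE 0.26). NOS1, the neuronal nitric oxide synthase that binds the same complex, was well above background on 3 arrays and was not tested. Of 28 sarcolemmal ion and volume transport genes, 4 were tested, with 2 higher and 2 lower and a median of -0.05. Among them were ATP1B1 (-0.25, SE 0.18), the potassium-chloride cotransporter gene SLC12A4 (0.31, SE 0.20) and the lactate carrier gene SLC16A1 (-0.39, SE 0.21).

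Genes of oxidative metabolism, the setting in which myoglobin works, were read next. All 8 measured nuclear-encoded respiratory chain genes of 79 listed were lower in the cortisol group, and 0 were called. Their median difference was -0.36, against -0.02 over all tested probes, of which 54.0% were on the lower side. ATP5MC1, a membrane subunit of ATP synthase, had a difference of -0.36 (SE 0.13), ATP5PO -0.32 (SE 0.13), ATP5MC2 -0.09 (SE 0.14) and the complex I gene NDUFA12 -0.35 (SE 0.16). NDUFA2, named for its likeness to AQP4, had a difference of -0.49 (SE 0.16). All 6 of its cortisol arrays lay below every control, as was found in 34 of 10719 probes (0.317%).

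Regulators of the oxidative and slow programme were measured for 10 of 40 listed genes, with 2 higher and 8 lower, 0 called and a median of -0.12. PPARGC1A, the coactivator of mitochondrial biogenesis, had a difference of -0.09 (SE 0.41) and RCAN1, a target of calcineurin signalling, -0.13 (SE 0.64). PPARA, the fatty acid receptor, had -0.23 (SE 0.14) and PRKAA2, a catalytic subunit of AMP-activated kinase, -0.16 (SE 0.22). For PPARGC1A and RCAN1, leaving out control array 3 turned the difference to 0.10 and 0.37.

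The only slow-fibre sarcomere gene of 12 listed that was measured was MYH7. All 4 measured fast-fibre genes of 15 were higher, with a median of 0.66 and 0 called. Besides MYH2 these were MYH1, the fast 2X myosin gene (1.17, SE 0.75), the troponin gene TNNC2 (0.26, SE 0.36) and the light chain gene MYLPF (0.18, SE 0.22). Without control array 3 these became 0.34, -0.10 and 0.00. All 4 fast-fibre values thus moved by over 1.5 times without that array.

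Of 11 myogenic regulators, 4 were measured, with 3 lower, 1 higher, 0 called and a median of -0.34. MYF5 had a difference of -0.60 (SE 0.20) but did not stand clear of background on 1 control array and 3 cortisol arrays. MYOG had -0.17 (SE 0.25), and its other, dimmer probe -0.57 (SE 0.37). The difference of medians was 0.20 on the first MYOG probe and -0.46 on the other. The growth inhibitor gene MSTN had 0.81 (SE 0.76), or 0.11 without control array 3. Genes for taking up and oxidising fatty acids were measured for 7 of 23. Of these 5 were higher and 2 lower, with 0 called and a median of 0.67. That median is the value of CPT1A, whose cortisol array 1 read -0.01 against -3.84 to -2.78 in the rest of the group. For FABP4 (1.65, SE 0.67), 2 controls and 4 cortisol arrays gave signal clear of background. Without control array 3, UCP3 and SLC25A20 fell from 0.98 and 0.07 to 0.00 and 0.01. FABP4, CPT1A and PLIN2 then read 1.73, 0.74 and 0.91. LPL, which releases fatty acids from plasma lipids, had a difference of -1.08 (SE 0.44), or -0.62 without control array 3. PLIN2, a lipid droplet coat gene, had 1.04 (SE 0.31), CPT1B, the muscle fatty acid importer, -0.21 (SE 0.23), or -0.01 without control array 3, and the acylcarnitine carrier SLC25A20 0.07 (SE 0.19).

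**Figure D5:**
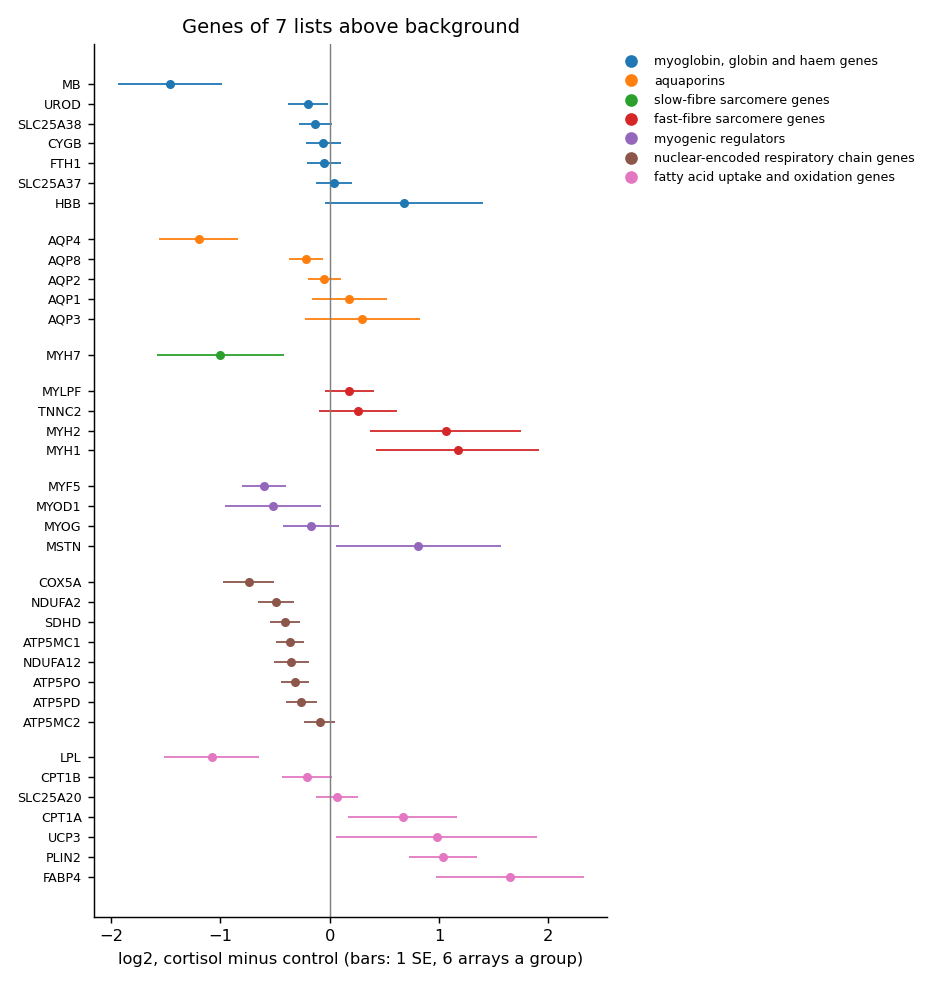
The horizontal axis gives the cortisol minus control difference in log2 signal with bars of 1 SE for the measured genes of 7 lists, coloured by list, with 6 arrays a group. MB (-1.46) and AQP4 (-1.20), both chosen for lower signal under cortisol, lie farthest to the left. All 8 respiratory chain genes lie below 0.

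Markers of other cell types were read beside the members, since fewer muscle fibres of a type and less RNA per fibre cannot be told apart in whole muscle. The astrocyte, Schwann cell and neuron list had 2 tested genes of 11, GFAP and GJA1, with mean signals of -0.71 to -0.08 in controls and -1.05 to 0.14 under cortisol. Fibroblast and matrix genes (7 of 12 tested) had mean signals of 0.94 to 1.96 and 1.17 to 2.17, and endothelial genes (6 of 10) of -1.63 to -1.21 and -2.03 to -1.03. Erythroid genes (3 of 7) had -2.26 to -0.21 and -2.74 to 0.14. The groups overlapped in each of these lists. Leukocyte genes (4 of 14) had a mean signal of -2.31 to -1.77 in controls and -1.98 to -1.48 under cortisol, adipocyte genes (4 of 8) -2.65 to -2.04 and -2.42 to -1.38, smooth muscle genes (2 of 7) 1.13 to 1.98 and 1.23 to 1.93, and tendon and cartilage genes (2 of 6) -6.04 to -0.73 and -5.91 to -1.82. Liver genes (5 of 8) had -5.11 to 2.28 and -4.52 to -2.14. Under cortisol 0 were higher and 5 lower, with a median difference of -2.04. Control arrays 1 and 4 alone were high (1.40 and 2.28), and the remaining controls, at -5.11 to -1.34, spanned the cortisol range. Only APOA1 (-0.21, SE 0.33) cleared background throughout. Of the controls, 5, 5, 4 and 4 did so for ALB, AHSG, TTR and SERPINA1, and of the cortisol arrays 3, 4, 5 and 4. Of the 4 leukocyte genes 3 were higher and 1 lower, with a median difference of 0.43. These were FCER1G (0.59, SE 0.17), ITGB2 (0.62, SE 0.23), CD14 (0.27, SE 0.24) and TYROBP, the brightest, which was lower (-0.20, SE 0.18). No gene of either list was called. Skeletal muscle genes (5 of 8) had 1.50 to 3.11 and 1.86 to 3.43. The part of cell makeup in the MB and AQP4 values was not tested.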

How the data were processed

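The 12 arrays carried 15744 spots, 15208 of them for 15008 non-control probes. Per the file headers, the deposited intensities were made with Agilent Feature Extraction 10.1.1.1 (also named in the submitters' processing notes), which subtracted background and detrended each array; the spot flags, of 0 or 1 (other values), are also as deposited. The authors' deposited log2 table served as an alternative, and its steps are not given in the sources used here.

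Processed signal was scaled to the 75th percentile of each array and log2 transformed, without outlier spots. Spots of 1 probe were averaged, and the probe with the highest mean stood for a gene. Probes that 6 or more of the 12 arrays placed well above background were tested with limma 3.58.1 (R 4.3.3), checked on simulated data. Relations used group-centred values and exact permutations within groups (scipy 1.17.1). Of the probes, 1576 had a gene name (961 names), through RefSeq (ARS-UI_Ramb_v3.0, for names alone), the array or, for 116 probes, a hand-made table that includes MYH7 and MYH2.

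Members, context genes and lists were chosen with earlier results of these data known. Named genes were the members, the 3 context genes, the 8 most and 4 least like each member, and up to 4 brightest measured genes of each list. Marker genes were named to identify a list or to give its limits, and UCP3 and FABP4 to give limits of theirs. Alternatives were background correction, scaling, the deposited table, outlier spots, blocks, array weights, filters and left-out arrays.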

Additional observations from a re-analysis of the deposited data

Results flagged for a closer look

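Of 114 groups of 6 arrays examined over the named genes, 12 had 1 array far from the other 5 (gap over 0.625 of the range), and chance flags about 1 in 20 groups. Neither MB nor AQP4 was among them. Control array 3 accounted for 6 of them. Its signal was 0.79 in MYH2 (the others 5.00 to 5.71), 0.50 in MYH1 (4.92 to 5.93), 8.44 in TNNC2 (10.23 to 10.97), -3.37 in MSTN (0.55 to 1.30), 4.58 in LPL (1.70 to 2.01) and 3.66 in CPT1B (2.42 to 2.67). Cortisol array 1, the lowest in AQP4, was high in CPT1A at -0.01 (-3.84 to -2.78) and in RCAN1 at 4.86 (1.57 to 2.17). Cortisol array 3, the lowest in MB, was high in RPS25 at 8.87 (8.10 to 8.35). Control array 1 was high in CYB561 at -3.01 (-3.95 to -3.61) and in GAPDH at 1.27 (1.07 to 1.13), and control array 5 was low in PPARA at -1.86 (-1.57 to -1.44).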

How the results depend on the processing

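The MB and AQP4 differences stayed below 0 in all 25 and 24 alternatives. Leaving out 1 array gave -1.69 to -1.06 for MB and -1.41 to -0.93 for AQP4. The replicate numbers were not treated as pairs in the main fit. Correlations of deviations between same-numbered arrays ran from -0.114 to 0.247. Of 12 arrays, 6 correlated best with their own number among the 6 arrays of the other group, more than random matching gives on average. Same-numbered arrays also shared a slide-and-row set. Whether the numbers are pairs was not tested. With the number as a block the differences were -1.46 (SE 0.52) and -1.20 (SE 0.39), and 0 probes were called. The count of probes called was 0 in every alternative except slide-and-row set 1 alone, with 1; leaving out arrays gave 0 throughout. The AQP4 and MYOD1 relation missed the threshold with normexp (r 0.88, adjusted exact permutation p 0.0557), with centring by set (0.91), and without any 1 cortisol array (r 0.78 to 0.90). Leaving out 1 control array instead, with as many arrangements, kept the adjusted exact permutation p between 0.0135 and 0.0481. The cause of the misses under normexp and without a cortisol array was not tested. Leaving out 1 array turned the sign of MB with MYOD1 (-0.46 to 0.14), AQP4 with MYH7 (-0.28 to 0.11), AQP4 with MYH2 (-0.27 to 0.19) and MB with local background (-0.04 to 0.47). The r of AQP4 with the share of probes well above background ran from -0.65 to -0.39, past the threshold without cortisol array 5. Of the 8 genes nearest to MB, 4 stayed among the nearest 40 with normexp and 6 or more in the other alternatives; for AQP4, 7 or 8 stayed. Of 57 named genes, 31 changed the sign of their difference in at least 1 of 24 alternatives, and 38 moved by over 1.5 times when 1 array was left out.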
